A study of Mus musculus with 18 samples.

Results

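The comparison described here asked what an agonist anti-CD40 antibody (Ab) added to MC38 tumors that were already under MEK inhibition. It set the 4 arrays of the combination (MEKi/CD40) against the 5 arrays of the inhibitor with a control Ab (MEKi), chosen by their titles, so 9 of the 18 arrays of the series. Each array held RNA of a piece of the tumor of a different animal on a 3′ expression array with a single color. MC38, a colon tumor line of C57BL/6 origin, was injected into the flank of C57BL/6-Ly5.1 mice, a CD45.1 congenic strain, aged 6 to 12 weeks. Animals of both groups received GDC-0623, an inhibitor of the kinase MEK, at 30 mg/kg daily for about 2 weeks. Anti-CD40 or control IgG was injected on treatment days 3, 5 and 7 and again 1 day before sampling, and tumors were taken on day 22 after inoculation. The remaining arrays came from tumors given vehicle with control IgG (control, 5 arrays) or vehicle with anti-CD40 (4 arrays) and serve only for the background levels and the interaction below. The model is limited to a single transplanted line, sampled at a single time point, in which tumor, stroma and infiltrating cells were extracted together.

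CD40 is a receptor of the TNF receptor family on dendritic cells, B cells and macrophages. Its natural ligand sits on activated helper T cells, and its engagement activates NF-kB, raises antigen presentation and costimulation and lets dendritic cells make IL-12, by which they prime CD8 T cells. MEK activates ERK, which drives growth and cell division in many tumor cells and also acts in immune and stromal cells.

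Values are the deposited log2 signals, 1 per probe set and array, so a difference of 1 is a doubling of signal. The lowest deposited value was 2.16 and 51.2% of values lay below 3, and a log2 signal of 5 is used here as a line below which a probe set is treated as near background. Per array, 58.9 to 59.1% of probe sets lay below 5 in MEKi tumors and 58.4 to 59.0% in MEKi/CD40 tumors. Arrays correlated at 0.995 to 0.998 within MEKi, at 0.987 to 0.996 within MEKi/CD40 and at 0.984 to 0.995 between the groups. Several MEKi/CD40 arrays stood apart from the rest. MEKi/CD40 2 and 4 had adipocyte scores (the mean log2 signal of 11 fat cell genes) of 9.67 and 6.28, against 3.79 to 4.99 in MEKi tumors, and MEKi/CD40 4 had a skeletal muscle score of 7.56, against 2.62 to 2.76. The 18S ribosomal RNA probe set, a measure of carried-over ribosomal RNA, gave 10.05 on MEKi/CD40 3 and 12.50 to 13.21 on the other MEKi/CD40 arrays, against 13.43 to 13.76. The 3′ to 5′ differences of Actb and Gapdh, which grow when RNA is degraded, differed between the groups by 0.0205 and 0.021 on the log2 scale (exact permutation tests, two-sided, adjusted p = 0.206 for both). The titles also carry a running number of unstated meaning, which lay below 7800 for MEKi 1, MEKi 2 and the 4 MEKi/CD40 arrays and above it for MEKi 3 to 5. Of 15 epithelial junction and keratin genes, 13 lay below 5 on all 9 arrays, so the tumors carried little epithelial keratin signal, whereas all 14 core macrophage genes lay above 5 on every array.

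With anti-CD40 added, more probe sets fell than rose. Of 45037 probe sets tested, 1127 were called at an adjusted p under 0.05 (2.50%), with 332 higher (0.737%) and 795 lower (1.77%) in MEKi/CD40 tumors (limma, Benjamini-Hochberg adjustment). At an unadjusted p under 0.05, 2877 were higher and 4687 lower. With the highest-signal probe set standing for each of 18193 genes, 175 genes were higher (0.962%) and 350 lower (1.92%). In these tumor pieces, fewer cells of a type and less RNA per cell cannot be told apart.

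The number of calls depended strongly on the arrays used. Leaving out MEKi 2, MEKi 4 or MEKi 5 left 38, 36 and 29 calls, leaving out MEKi 3 left 247, and leaving out MEKi/CD40 1 or MEKi/CD40 2 left 271 and 232. Leaving out MEKi 1 left 678 calls. In each of the 9 fits with an array left out, all 1127 called probe sets kept their direction. This was fixed in advance, because the groups did not overlap in any of the 1127. When only the 18515 probe sets with a mean above 5 were tested, 2914 were called, and 1009 to 3721 were called with any array left out. With the title number series as a block, 28 probe sets were called, and among MEKi 1, MEKi 2 and the MEKi/CD40 arrays alone 10 were. Without MEKi/CD40 2 and 4, the arrays of high fat signal, 379 were called.

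**Figure D1:**
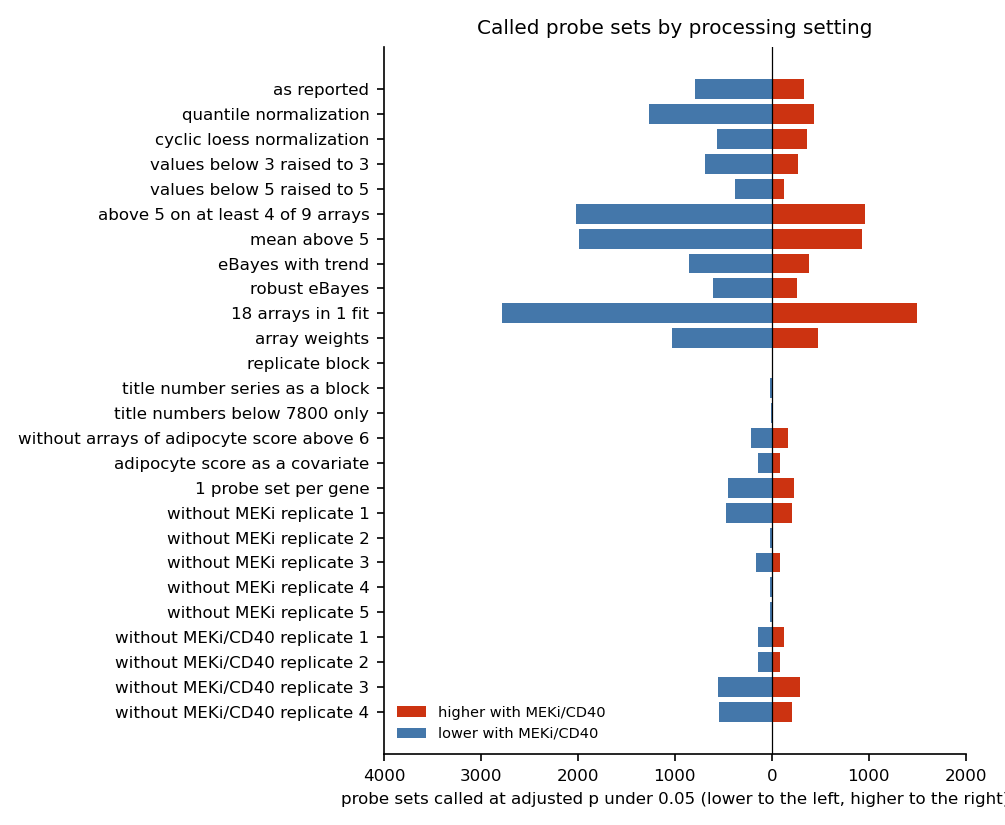
Number of probe sets called at an adjusted p under 0.05 (horizontal axis, lower in MEKi/CD40 to the left of 0, higher to the right) under each processing setting (vertical axis). The bars for the fits without MEKi 2, MEKi 4 or MEKi 5 and for the title number series as a block nearly vanish (28 to 38 calls), whereas testing only probe sets with a mean above 5 gives 928 higher and 1986 lower.

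Of the 10 largest called rises with anti-CD40, 4 (Clec3b, Pi16, Efemp1 and Itih5) are members of the universal fibroblast list described below and 1 (Cd163) is a member of the M2-like macrophage list. The other 5 (Tnxb, Mbp, Apol11b, Ndn and Smoc2) are in none of the gene lists used here. The leading genes were picked among called genes without overlap between the groups, and all 1127 called probe sets had such separation. Separate groups in a called gene therefore add nothing to its call. For genes whose signal lay below 5 on every array of a group, the fold is given as a bound, at least the mean of the brighter group over a log2 signal of 5.

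Clec3b encodes tetranectin, a plasminogen-binding lectin made by fibroblasts. It measured 2.72, 4.47, 2.95, 2.48 and 2.49 in MEKi tumors 1 to 5 and 8.07, 8.87, 9.38 and 8.43 in MEKi/CD40 tumors 1 to 4. All 4 MEKi/CD40 tumors lay far above the MEKi tumors, and MEKi 2 was the highest of its group. The difference was 5.67 ± 0.48 on the log2 scale (SE, adjusted p = 0.012), at least 12.9-fold. Apol11b, a member of the apolipoprotein L family, measured 3.27, 2.46, 2.86, 2.27 and 2.27 in MEKi tumors and 7.27, 7.65, 7.59 and 8.73 in MEKi/CD40 tumors. The groups lay more than 3 log2 units apart with little spread within either. Apol11b rose by 5.18 ± 0.35 (adjusted p = 0.012), at least 7.01-fold. Of the 10 leading genes in each direction, Clec3b and Apol11b were called in all 9 fits with an array left out. With the title number series as a block, the adjusted p of Apol11b was 0.0435 and that of Clec3b 0.0819. For the other called genes given below with a fitted difference, leaving out MEKi 4 or MEKi 5 took the adjusted p over 0.05.

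Pi16, a peptidase inhibitor that marks fibroblasts found in many tissues, measured 2.48, 7.73, 5.90, 4.88 and 5.02 in MEKi tumors. In MEKi/CD40 tumors it measured 10.89, 10.47, 11.80 and 10.09. MEKi 1 was near the floor and MEKi 2 the highest of the MEKi tumors, yet every MEKi/CD40 tumor lay above all of them. By this probe set Pi16 rose 48.9-fold, by 5.61 ± 0.99 on the log2 scale (adjusted p = 0.0401). Its other probe set differed by 0.0375 and was not called. Efemp1, which encodes the elastic fiber protein fibulin-3, measured 4.55, 8.14, 6.80, 5.28 and 5.93 in MEKi tumors and 9.99, 11.36, 11.38 and 10.35 in MEKi/CD40 tumors. The groups did not overlap, with MEKi 2 again the highest of its group. Efemp1 rose 24.8-fold (4.63 ± 0.75, adjusted p = 0.0336). Each was called in 1 of the 9 fits with an array left out, and in all 9 when dim probe sets were not tested.

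Tnxb encodes the matrix glycoprotein tenascin-X. Its signal was 2.23, 4.07, 2.41, 2.23 and 2.26 in MEKi tumors and 7.15, 9.01, 8.72 and 8.02 in MEKi/CD40 tumors. It was near the floor in every MEKi tumor other than MEKi 2 and well above background in each MEKi/CD40 tumor, at least 9.35-fold higher (5.58 ± 0.53, adjusted p = 0.0155). Ndn, the growth suppressor necdin, measured 2.97, 4.95, 3.02, 3.07 and 2.76 against 6.38, 9.18, 9.82 and 7.72, and was at least 9.68-fold higher (4.92 ± 0.80, adjusted p = 0.0336). Smoc2, a secreted matricellular protein, measured 2.17, 2.87, 2.47, 3.12 and 2.82 against 5.96, 6.90, 9.33 and 6.19, and was at least 4.27-fold higher (4.41 ± 0.69, adjusted p = 0.031). In both genes the lowest MEKi/CD40 tumor was MEKi/CD40 1 and the highest MEKi/CD40 3. Of the 8 probe sets of Ndn, 5 had differences above 0 and 2 were called higher. Itih5, which binds hyaluronan in the matrix, was represented among the leading genes by a probe set at 2.16, 2.55, 2.17, 2.16 and 2.17 in MEKi tumors and at 5.86, 8.29, 7.99 and 6.25 in MEKi/CD40 tumors. It was at least 4.28-fold higher (4.86 ± 0.53, adjusted p = 0.0189), and all 3 of its probe sets were called higher.

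Cd163, the scavenger receptor by which macrophages take up hemoglobin, measured 2.16, 3.13, 2.24, 2.34 and 2.26 in MEKi tumors. In MEKi/CD40 tumors it measured 5.06, 7.32, 8.97 and 7.73. It was below 5 in each MEKi tumor and above 5 in each MEKi/CD40 tumor, with MEKi/CD40 1 just over the line. It was at least 4.82-fold higher (4.84 ± 0.73, adjusted p = 0.0291). Mbp, myelin basic protein, measured 2.16 in MEKi 1, 3, 4 and 5 and 2.91 in MEKi 2, against 5.15, 10.30, 8.87 and 6.07 in MEKi/CD40 tumors. Its MEKi/CD40 values spread over more than 5 log2 units, with an SD of 2.40. The call (5.29 ± 1.04, adjusted p = 0.0495, at least 6.05-fold) was lost in every fit with an array left out, and 1 of its 8 probe sets was called.

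Among the genes that fell, the largest change was in Nptx1, a neuronal pentraxin. It measured 6.95, 8.71, 7.98, 8.42 and 8.34 in MEKi tumors and 5.26, 3.40, 3.13 and 4.13 in MEKi/CD40 tumors. The groups were separate, and MEKi 1 and MEKi/CD40 1 lay closest to each other. It fell by 4.10 ± 0.53 on the log2 scale (adjusted p = 0.0224), with 3 of the 4 MEKi/CD40 values below 5, so no fold is given. Kcne3, a regulatory subunit of potassium channels in epithelia, measured 6.57, 6.36, 6.77, 6.64 and 7.25 against 3.30, 3.30, 4.32 and 4.76. Each MEKi/CD40 tumor lay below 5 and each MEKi tumor above 6, at least 3.29-fold (-2.80 ± 0.36, adjusted p = 0.0224). Both genes were called in 4 of 9 fits with an array left out.

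Cep55, which acts at the midbody when dividing cells separate, measured 5.45, 6.60, 5.46, 6.71 and 6.26 in MEKi tumors and 2.65, 3.16, 4.17 and 4.21 in MEKi/CD40 tumors, at least 2.14-fold lower (-2.55 ± 0.45, adjusted p = 0.0397). Tmpo, a protein of the inner nuclear membrane, measured 6.93, 7.28, 7.05, 7.48 and 7.26 against 4.35, 4.00, 5.86 and 4.95, also with 3 of 4 MEKi/CD40 values below 5 (-2.41 ± 0.36, adjusted p = 0.0297). In both genes MEKi/CD40 1 and 2 were the lowest tumors. Of the 6 probe sets of Tmpo, 4 had differences below 0 and 3 were called lower. Acpp, prostatic acid phosphatase, measured 9.58, 9.60, 9.50, 9.21 and 9.35 against 6.27, 6.56, 7.98 and 7.66, and was 5.03-fold lower (-2.33 ± 0.36, adjusted p = 0.0311). All 3 of its probe sets were called lower. Coq8a, a factor for coenzyme Q synthesis, measured 8.91, 8.81, 8.27, 9.01 and 8.80 against 6.12, 7.04, 6.51 and 7.48. By this probe set it was 3.92-fold lower (-1.97 ± 0.29, adjusted p = 0.0289). Its other probe set differed by -0.0235 and was not called.

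Met, the receptor for hepatocyte growth factor, measured 4.85, 5.28, 4.94, 5.37 and 4.80 in MEKi tumors and 2.81, 2.85, 3.71 and 3.06 in MEKi/CD40 tumors. The groups did not overlap but MEKi values lay around 5, so the bound was 1.03-fold (-1.94 ± 0.22, adjusted p = 0.0196). It was called in 6 of 9 fits with an array left out. Clec1a, a C-type lectin receptor, Rapsn, which clusters acetylcholine receptors at the muscle synapse, and Pdxk, pyridoxal kinase, completed the 10 largest falls, with differences of -2.17, -1.97 and -1.84. In these 3 genes every MEKi/CD40 value lay below 5, and the bounds were 1.67-fold, 1.68-fold and 1.6-fold. Of the 3 probe sets of Pdxk, 2 were called lower.

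**Figure D2:**
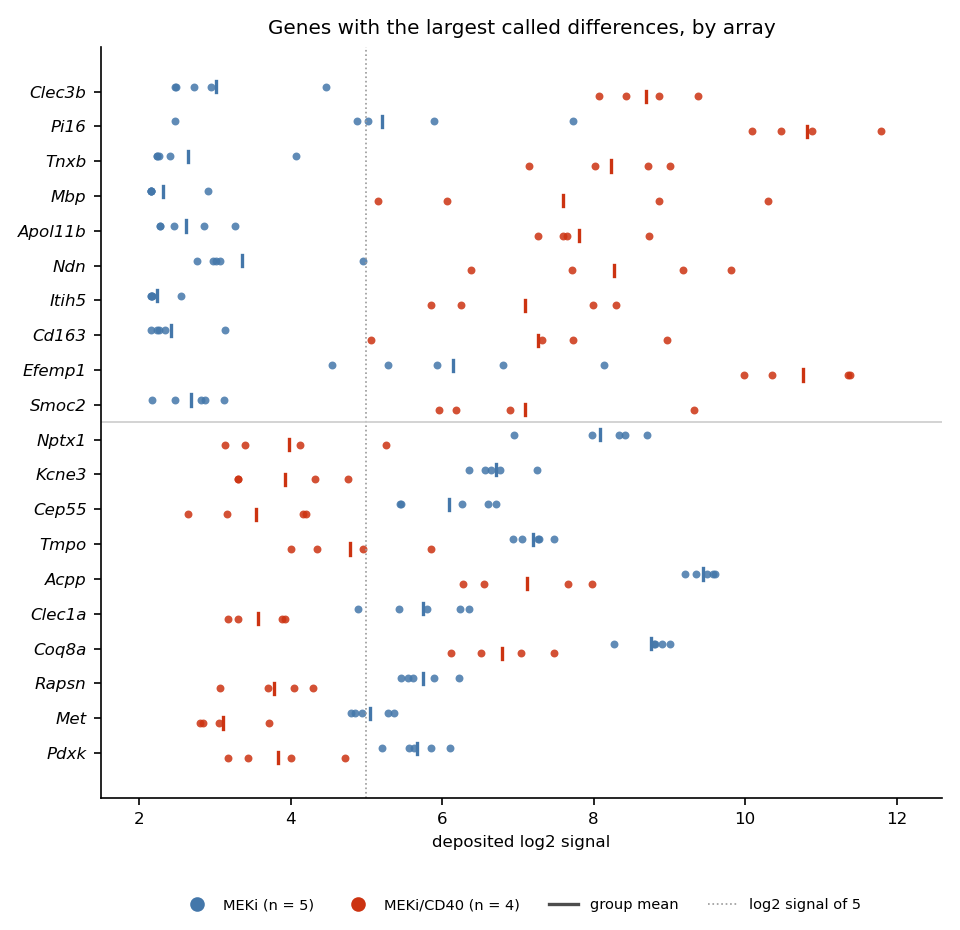
Deposited log2 signal (horizontal axis) on each MEKi (n = 5, blue) and MEKi/CD40 (n = 4, red) array for the 10 largest called rises (above the gray line) and 10 largest called falls (below it), with bars for group means and a dotted line at a log2 signal of 5. Only genes without overlap between the groups were eligible. MEKi 2 is the blue point nearest the red ones for Clec3b (4.47), Tnxb (4.07), Ndn (4.95) and Pi16 (7.73).

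Of the gene lists, that of universal fibroblasts held the most called rises. The lists were chosen with earlier results of these data known, so this ranking is a description only. Universal fibroblasts, marked by Pi16 and Dpp4, are described in many organs as a common reserve from which specialized fibroblasts arise. Of 13 measured genes of this list, 7 rose (0.962% of all genes did), 0 fell and 6 did not pass. The median difference was 2.78 against a median of 0 over all genes. The 7 were Clec3b, Pi16, Efemp1, Itih5, Col14a1, Dpp4 and Mfap5. Dpp4, a surface dipeptidase, measured 3.33, 4.17, 3.65, 3.67 and 3.39 in MEKi tumors and 5.89, 6.92, 7.31 and 5.56 in MEKi/CD40 tumors. It was below 5 in each MEKi tumor and above it in each MEKi/CD40 tumor, at least 2.68-fold higher (2.78 ± 0.39, adjusted p = 0.0268). Of its 4 probe sets, 2 were called higher. Cd34, Igfbp6 and Gsn, which many other cells also express, differed by -0.06, 0.38 and 0.50 and were not called. Outside the genes picked by the naming rule, list members are named here with their values known. In 9 of the 13 genes every MEKi/CD40 array lay above every MEKi array, as it did for 3.73% of all genes. The score of the list was 7.81 to 8.96 in MEKi tumors and 10.57 to 11.17 in MEKi/CD40 tumors. With any 1 of MEKi 2, MEKi 3, MEKi 4, MEKi 5 and MEKi/CD40 2 left out, 1 of the 13 genes was called. With any other array left out 2 to 5 were, and the list median lay between 2.45 and 2.95 in all 9 fits. Without MEKi/CD40 2 and 4, the arrays with fat signal, 1 gene was called and the median was 2.75.

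Among 21 genes of matrix-producing fibroblasts, 2 rose (Col14a1 and Col5a1) and 0 fell, where 0.962% of all genes rose. The differences of all 21 were above 0, with a median of 0.50, and 15 of them passed an unadjusted p under 0.05, which 7.43% of all genes did in this direction. Col14a1, a collagen on the surface of fibrils, measured 7.80, 8.15, 7.39, 7.63 and 7.90 in MEKi tumors and 9.46, 10.96, 11.59 and 10.25 in MEKi/CD40 tumors. The lowest MEKi/CD40 tumor lay above the highest MEKi tumor, and Col14a1 rose 6.92-fold (2.79 ± 0.42, adjusted p = 0.029). Of its 3 probe sets, 2 were called higher. Col5a1, a minor collagen that nucleates fibrils, measured 13.22, 12.84, 13.02, 12.54 and 12.91 against 14.02, 13.79, 13.61 and 13.74. It rose 1.85-fold (0.88 ± 0.14, adjusted p = 0.0336). Col1a1, a chain of the main fibrillar collagen, measured 13, 12.06, 12.72, 11.02 and 11.48 against 14.00, 13.90, 13.68 and 13.56, and did not pass (1.73 ± 0.42, adjusted p = 0.0803). Its MEKi values spread over about 2 log2 units while the MEKi/CD40 values lay close together. Bgn (biglycan) did not pass by the probe set that stands for it, although 2 of its 3 probe sets were called higher. Fn1, Dcn and Col3a1, which were already bright, differed by 0.08, 0.11 and 0.15. Of 13 myofibroblast and pericyte genes and 16 endothelial genes, with medians of 0.02 and 0.21, 0 were called in either direction (2 of each list were higher at an unadjusted p under 0.05).

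**Figure D3:**
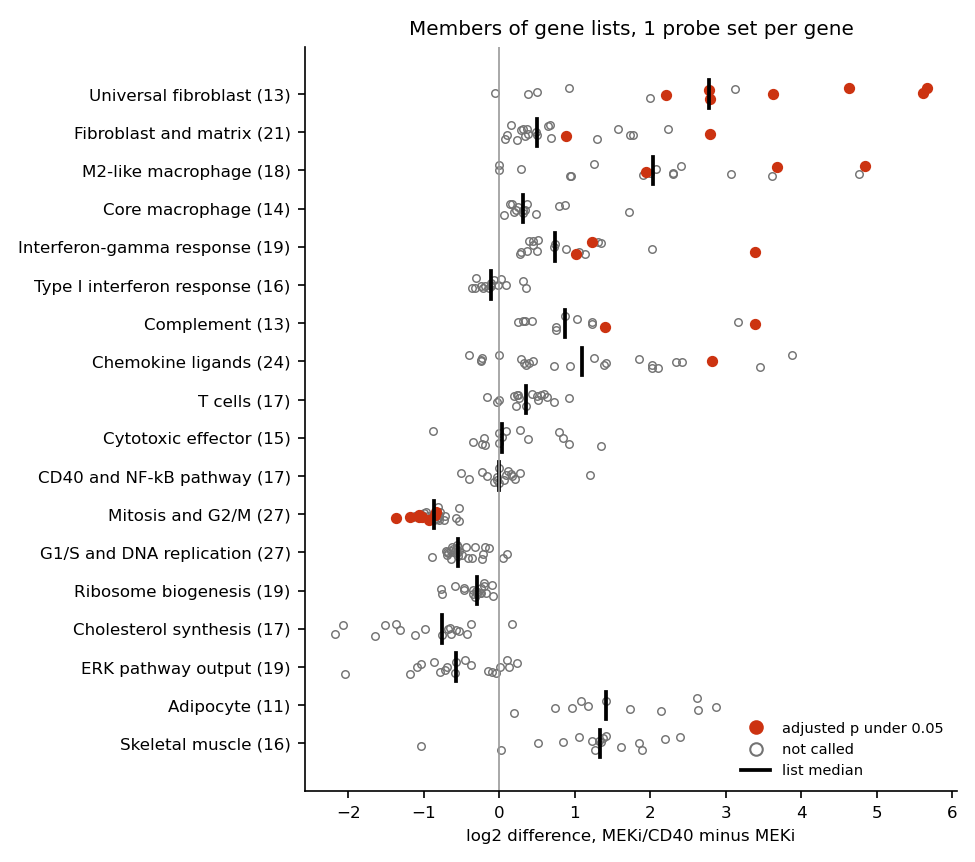
Log2 difference of MEKi/CD40 minus MEKi (horizontal axis) for each measured gene of 18 lists (vertical axis, number of genes in parentheses), with called genes filled in red, others open, and a black bar at the list median. The universal fibroblast list has 7 called genes up to 5.67, the mitosis list 8 called genes down to -1.36, and T cells, CD40 and NF-kB, adipocyte and skeletal muscle lists have none.

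Macrophage genes differed from list to list. Core macrophage genes, which mark these cells in any state, had a median difference of 0.32, with 0 of 14 called and all 14 above 0 (3 were higher at an unadjusted p under 0.05). Genes linked to the M2-like state, in which macrophages clear debris and repair tissue, had a median of 2.04, with 3 of 18 called higher (Cd163, F13a1 and Gas6) and 0 lower. In 10 of the 18 the groups did not overlap, each time with MEKi/CD40 higher. Of all genes, 3.73% were separate in this direction and 0.962% were called higher. Gas6, a ligand of the TAM receptors in the clearance of dead cells, measured 5.24, 7.14, 5.59, 6.77 and 6.49 in MEKi tumors and 8.64, 9.56, 11.20 and 10.29 in MEKi/CD40 tumors. Every MEKi/CD40 value lay above the MEKi values, with MEKi/CD40 3 the highest. By this probe set Gas6 rose 12.8-fold (3.68 ± 0.61, adjusted p = 0.0353), and its other probe set differed by 0. With any 1 of MEKi 2, MEKi 3, MEKi 4, MEKi 5, MEKi/CD40 2 and MEKi/CD40 4 left out, 0 of the 18 were called, and with any other array left out 1 or 2 were. F13a1, the A subunit of coagulation factor XIII, measured 9.94, 10.21, 10.10, 9.37 and 10.22 against 11.56, 11.60, 12.79 and 11.68, and rose 3.84-fold (1.94 ± 0.31, adjusted p = 0.0321).

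Mrc1, the mannose receptor CD206, did not pass. It measured 7.37, 7.76, 7.40, 6.92 and 7.20 in MEKi tumors and 8.43, 8.36, 11.15 and 9.39 in MEKi/CD40 tumors (2.00 ± 0.58, adjusted p = 0.125). The groups did not overlap, but MEKi/CD40 3 lay nearly 2 log2 units above the next tumor, and the difference without it was 1.40. Retnla, Lyve1 and Folr2, other genes of tissue-resident or repair macrophages, differed by 4.76, 3.61 and 2.30 and were not called. Gas6 is also made by fibroblasts, and F13a1 by monocytes. Of 14 M1-like genes, which mark inflammatory macrophages, 0 were called and the median was 0.25 (4 were higher at an unadjusted p under 0.05). Of 11 genes of the microglia-like list, 0 were called and the median was -0.11 (1 in each direction passed an unadjusted p under 0.05). Of these 11, 8 had differences below 0 and 2 above, and 4 lay below 5 on all 9 arrays. The median of those not below 5 on all arrays was -0.71. Fcrls, an Fc receptor-like gene of resident macrophages, had a difference of -1.89 (adjusted p = 0.0772). Of 9 monocyte and 14 neutrophil genes, with medians of 0.50 and 0.02, 0 were called in either direction (3 and 2 were higher and 0 and 1 lower at an unadjusted p under 0.05). These counts use the probe set that stands for each gene, and 2 of the 8 probe sets of the monocyte gene Vcan were called higher. Of the 14 neutrophil genes, 6 lay below 5 on all 9 arrays, 9 had differences above 0 and 2 below. The median of those not below 5 on all arrays was 1.37. S100a8 of this list differed by 2.78 with separate groups and did not pass (adjusted p = 0.125).

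Interferon-gamma (IFN-gamma) is made by T and NK cells and switches on guanylate-binding proteins, immunity-related GTPases and the chemokines that attract T cells. All 19 measured genes of this response had differences above 0 (median 0.75), 3 rose, 0 fell and 11 passed an unadjusted p under 0.05 in the higher direction. Of all genes, 0.962% rose and 7.43% passed the unadjusted threshold in that direction. Gbp6, a guanylate-binding protein, measured 11.94, 11.98, 11.75, 11.62 and 11.81 in MEKi tumors and 13.01, 12.66, 13.70 and 12.82 in MEKi/CD40 tumors. MEKi tumors lay within 0.4 of each other and below each MEKi/CD40 tumor, and Gbp6 rose 2.34-fold (1.23 ± 0.21, adjusted p = 0.0368). Irgm2, an immunity-related GTPase, measured 11.55, 11.71, 11.18, 11.48 and 11.45 against 12.50, 12.06, 12.94 and 12.47, and rose 2.03-fold (1.02 ± 0.18, adjusted p = 0.0407). Serping1, the inhibitor of the first complement component, measured 7.30, 9.89, 9.17, 8.68 and 8.56 against 11.40, 12.06, 13.15 and 11.81, and rose 10.4-fold (3.38 ± 0.57, adjusted p = 0.0361). In each of the 3 genes the groups were separate and MEKi/CD40 3 was the highest tumor. MEKi/CD40 3 was also the array of lowest 18S signal, and without it Gbp6, Irgm2 and Serping1 differed by 1.01, 0.87 and 3.04. The median of the whole list was 0.34 without that array, with 18 of the 19 differences above 0 and 1 gene called. With any 1 of MEKi 2, MEKi 3, MEKi 4, MEKi 5, MEKi/CD40 1 and MEKi/CD40 4 left out, 0 of the 19 were called.

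Cxcl9, which attracts T cells through CXCR3, measured 11.21, 11.44, 9.95, 10.68 and 11.65 in MEKi tumors and 12.74, 12.12, 13.98 and 13.22 in MEKi/CD40 tumors. The groups did not overlap, but the difference of 2.03 ± 0.48 did not pass (adjusted p = 0.0742). Ifng itself measured 4.34, 4.27, 4.27, 4.48 and 5.42 against 5.53, 4.36, 7.71 and 6.03 (1.35 ± 0.64, adjusted p = 0.364). MEKi/CD40 2 lay among the MEKi tumors for Ifng, most values were near or below 5, and the difference without MEKi/CD40 3 was 0.75. Of 16 genes of the type I interferon response, 0 were called, 12 had differences below 0 and the median was -0.11 (1 in each direction passed an unadjusted p under 0.05).

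The promoters of the IFN-gamma list are shown because its genes are known targets of interferon-activated factors, which bind the element called ISRE. The letters searched were GAAANNGAAA on both strands, from 250 bases before to 50 bases after the RefSeq start (mouse build GRCm38.p6). Of 27018 promoters of all genes, 3.49% held a match. Of the 19 genes, 14 had an entry and 8 of these held a match (57.1%). A match describes the letters only and shows no binding. Shown are stretches of the promoter of Irgm2 (chr11:58214893-58214986, + strand) and that of Apol11b (chr15:77643277-77643356, - strand), where the match lies on the other strand. Capitals mark the match. Apol11b is not a member of the IFN-gamma list and is shown as the 1 of 7 leading rises with an entry that held a match (14.3%).
Irgm2: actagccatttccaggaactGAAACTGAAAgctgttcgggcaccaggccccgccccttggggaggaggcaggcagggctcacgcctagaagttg
Apol11b: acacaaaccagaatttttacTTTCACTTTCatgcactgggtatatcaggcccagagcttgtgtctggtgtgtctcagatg

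Of 13 complement genes, 2 rose (Serping1 and Cfb), 0 fell and all had differences above 0, with a median of 0.87. Of all genes 0.962% rose. At an unadjusted p under 0.05, 6 of the 13 were higher and 0 lower, where 7.43% of all genes were higher. C2 did not pass by the probe set that stands for it, but 1 of its 3 probe sets was called higher. Cfb, factor B of the alternative pathway, measured 11.04, 10.82, 11.02, 10.07 and 10.43 in MEKi tumors and 12.24, 11.81, 12.40 and 11.86 in MEKi/CD40 tumors. The groups were separate, and Cfb rose 2.64-fold (1.40 ± 0.24, adjusted p = 0.0378). The C1q genes of macrophages, C1qa, C1qb and C1qc, differed by 0.25, 0.34 and 0.32. Of 24 chemokine ligands, 10 were higher and 0 lower at an unadjusted p under 0.05, where 7.43% of all genes were higher. The list median was 1.10. By adjusted p 1 of the 24 rose (0.962% of all genes did) and 0 fell. It was Ccl6, a myeloid chemokine, at 8.76, 10.27, 9.86, 8.93 and 9.31 in MEKi tumors and 11.62, 11.98, 13.48 and 11.92 in MEKi/CD40 tumors, 7.08-fold higher (2.82 ± 0.48, adjusted p = 0.0361). Ccl11, an eosinophil attractant also made by fibroblasts, and Cxcl5, a neutrophil attractant, differed by 3.87 and 3.45 and were not called. MEKi/CD40 3 was the highest tumor for Ccl6 and Cxcl9, and without it the median of the chemokine list was 0.417.

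Of 19 acute phase and IL-6 genes, 0 were called and the median was 0.71 (6 were higher at an unadjusted p under 0.05). Saa3, a serum amyloid A made at sites of inflammation, measured 6.48, 10.53, 10.86, 9.82 and 9.09 in MEKi tumors and 12.48, 12.14, 14.80 and 12.38 in MEKi/CD40 tumors. Its groups did not overlap but were widely spread, and the difference of 3.59 ± 1.01 did not pass (adjusted p = 0.118). Antigen presentation genes showed no call by the probe set standing for each gene. Of 9 genes of the MHC class II pathway, 0 were called, 8 had differences above 0 and the median was 0.97 (3 were higher and 1 lower at an unadjusted p under 0.05). Of 15 genes of the class I pathway, 0 were called and the median was 0.05 (4 were higher at an unadjusted p under 0.05). Calr, the chaperone calreticulin of this list, did not pass by the probe set that stands for it, but 2 of its 3 probe sets were called higher, with differences of 0.22 to 0.25 over the 3.

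Genes of the pathway that the Ab engages showed no call. Of 17 CD40 and NF-kB genes, 0 were called and the median was 0.00 (1 higher and 3 lower at an unadjusted p under 0.05). Cd40 measured 6.33, 6.30, 4.93, 6.54 and 6.33 in MEKi tumors and 6.65, 6.68, 8.46 and 7.38 in MEKi/CD40 tumors. Every MEKi/CD40 value was above every MEKi value, by as little as 0.11 for MEKi/CD40 1, and the difference of 1.21 had a 95% interval of 0.07 to 2.35 without adjustment (adjusted p = 0.266). Of 17 dendritic cell and IL-12 family genes, 0 were called and 10 lay below 5 on all 9 arrays (3 were higher at an unadjusted p under 0.05). Fscn1 of this list did not pass by the probe set that stands for it, but 1 of its 4 probe sets was called lower. Il12b, the p40 subunit of IL-12, measured 2.85, 2.93, 2.85, 3.03 and 2.85 in MEKi tumors and 2.79, 3.79, 3.42 and 3.48 in MEKi/CD40 tumors. These values lay near background in both groups. Of 14 B cell and plasma cell genes, 0 were called at either threshold, and 10 lay below 5 on all 9 arrays.

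No T cell gene passed the test. Of 17 genes, 0 were called at either threshold, the median was 0.35, and 7 lay below 5 on all 9 arrays. Cd8a, a chain of the CD8 coreceptor, measured 7.65, 6.76, 6.96, 6.97 and 7.73 in MEKi tumors and 7.32, 6.58, 8.43 and 7.94 in MEKi/CD40 tumors. The groups overlapped, and the difference of 0.35 had an interval of -0.60 to 1.31 (adjusted p = 0.747). Gzmb, the cytotoxic protease granzyme B, measured 7.31, 8.57, 8.02, 8.03 and 7.95 against 7.46, 8.77, 8.46 and 7.55, with a difference of 0.08 and an interval of -0.75 to 0.92. Of 15 cytotoxic effector genes, 0 were called and the median was 0.04 (1, the granzyme K gene Gzmk, was higher at an unadjusted p under 0.05). Foxp3, the defining factor of regulatory T cells, lay at 2.17 to 2.45 on all 9 arrays, near the floor. The difference of Cd8a minus Foxp3 therefore followed Cd8a and does not read regulatory T cells, and it sets 1 probe set against another. Its group means differed by 0.39 (exact permutation test, two-sided, p = 0.333, where 126 splits allow a smallest p of 0.00794).

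Of 14 immune checkpoint genes, 1 rose (0.962% of all genes did) and 0 fell, with a median of 0.25. It was Cd276, which encodes B7-H3, at 6.03, 5.57, 6.08, 5.57 and 5.60 in MEKi tumors and 6.94, 6.75, 7.58 and 6.55 in MEKi/CD40 tumors. All MEKi/CD40 tumors lay above the MEKi tumors, and Cd276 rose 2.27-fold (1.19 ± 0.23, adjusted p = 0.0485). The call was lost in each of the 9 fits with an array left out. Cd274, which encodes PD-L1, differed by 1.31 (adjusted p = 0.327) and by 0.68 without MEKi/CD40 3, and Pdcd1, Ctla4 and Lag3 by 0.26, 0.23 and 0.23.

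Genes of mitosis were lower in MEKi/CD40 tumors. Of 27 measured genes that act from G2 to cell separation, 8 fell (1.92% of all genes did), 0 rose and 19 did not pass. All 27 had differences below 0 (median -0.86), and all 27 passed an unadjusted p under 0.05 in the lower direction, which 12.5% of all genes did. In 19 of the 27 every MEKi/CD40 array lay below every MEKi array, as it did for 6.75% of all genes. When only probe sets with a mean above 5 were tested, 22 of 27 were called lower. With MEKi 2, MEKi 4 or MEKi 5 left out none of the list was called, and with any other array left out 1 to 6 were. The median was -0.73 to -0.97 in these fits. Without MEKi/CD40 2 and 4 none was called either, with a median of -0.80 and all 27 below 0.

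Anln, the contractile ring protein anillin, measured 11.22, 11.63, 11.29, 11.57 and 11.41 in MEKi tumors and 10.55, 10.51, 10.60 and 10.71 in MEKi/CD40 tumors. The MEKi/CD40 tumors lay within 0.20 of each other and below each MEKi tumor, and Anln fell by 0.83 on the log2 scale, 1.78-fold (SE 0.09, adjusted p = 0.0196). Ccnb2, the mitotic cyclin B2, measured 9.67, 10.39, 9.88, 10.16 and 9.87 against 8.91, 8.20, 8.42 and 9.0, and was 2.57-fold lower (-1.36 ± 0.22, adjusted p = 0.0321). Cdc20, an activator of the anaphase-promoting complex, measured 10.61, 11.19, 10.63, 11.12 and 10.94 against 9.77, 9.63, 10.04 and 10.08, and was 2.03-fold lower (-1.02 ± 0.16, adjusted p = 0.0322). In all 3 genes the groups were separate. The other 5 called genes were Prc1, Hmmr, Ect2, Kif23 and Bub1, with differences of -0.85 to -1.17. Mki67, the Ki-67 antigen, measured 10.85, 11.04, 10.69, 11.00 and 10.91 against 10.14, 9.96, 10.78 and 10.56. MEKi/CD40 3 lay above the lowest MEKi tumor, and the difference of -0.54 ± 0.18 did not pass (adjusted p = 0.167).

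**Figure D4:**
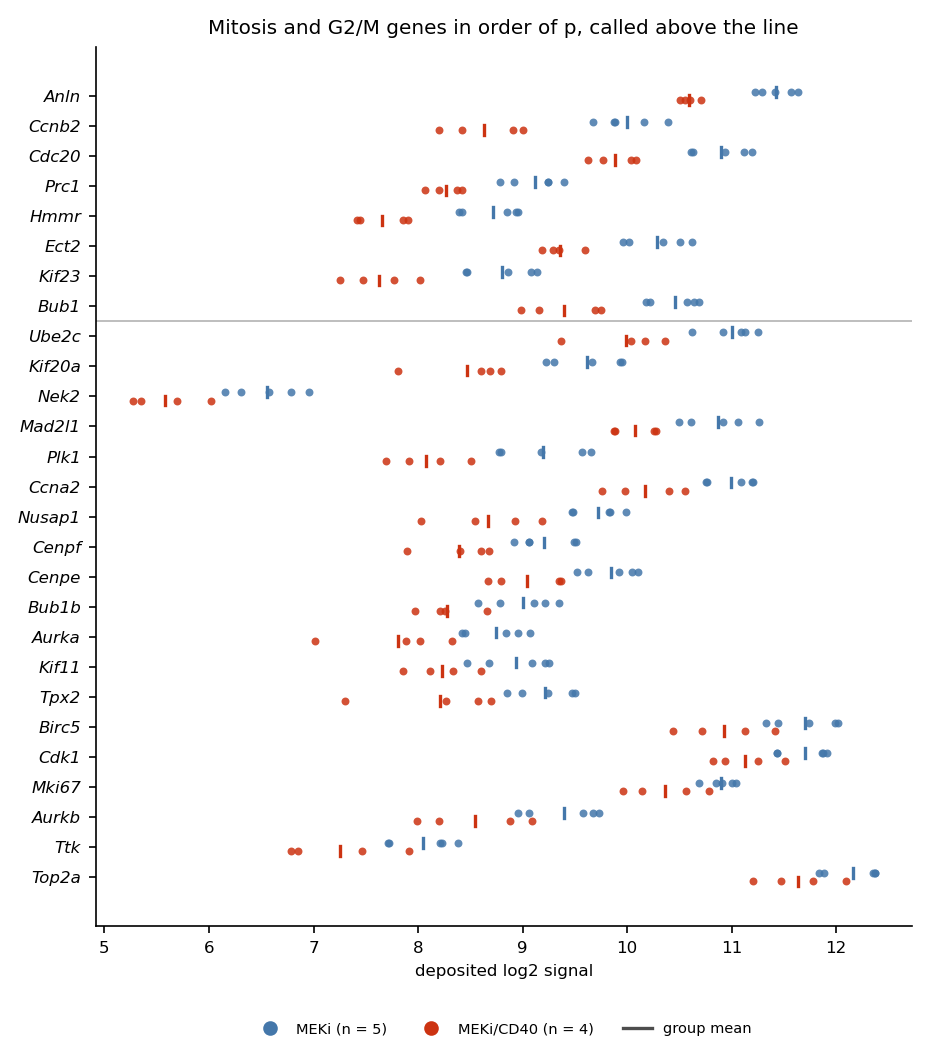
Deposited log2 signal (horizontal axis) on each MEKi (n = 5, blue) and MEKi/CD40 (n = 4, red) array for the 27 mitosis and G2/M genes in order of p, called genes above the gray line, with bars at the group means. Red means lie to the left of blue means in all 27 genes, from -1.36 for Ccnb2 to -0.53 for Top2a, and the groups overlap in 8 genes.

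Promoters of mitotic genes are known to pair CCAAT boxes, bound by NF-Y, with the element called CHR, bound by the complexes that keep these genes off in resting cells. CCAAT and TTTGAA were searched on both strands in the same windows. Of 27018 promoters, 37.9% held CCAAT and 18.1% held TTTGAA. Of the 27 list members, 23 had an entry, of which 19 held CCAAT (82.6%) and 17 held TTTGAA (73.9%). Of the 8 called genes, 7 held CCAAT and 7 held TTTGAA. Promoters of called genes that held both are shown for Ccnb2 (chr9:70421525-70421741, - strand), Cdc20 (chr4:118437327-118437416, - strand) and Prc1 (chr7:80294394-80294471, + strand), with the matches in capitals and each printed 5′ to 3′ along its gene. Prc1, a microtubule cross-linker of the spindle midzone, was chosen for its short stretch after the values were seen.
Ccnb2: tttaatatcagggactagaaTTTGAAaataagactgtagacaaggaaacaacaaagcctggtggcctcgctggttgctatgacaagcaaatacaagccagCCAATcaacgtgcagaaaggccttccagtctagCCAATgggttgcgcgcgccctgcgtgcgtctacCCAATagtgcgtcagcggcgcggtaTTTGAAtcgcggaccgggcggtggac
Cdc20: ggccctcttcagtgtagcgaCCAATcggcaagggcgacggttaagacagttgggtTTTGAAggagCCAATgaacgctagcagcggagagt
Prc1: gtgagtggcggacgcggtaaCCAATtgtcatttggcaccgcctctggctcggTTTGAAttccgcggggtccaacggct

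No gene of DNA replication, which precedes mitosis, passed the test. Of 27, 0 were called, 25 had differences below 0 and the median was -0.55 (6 were lower at an unadjusted p under 0.05). When only probe sets with a mean above 5 were tested, 2 of 26 were called lower. With MEKi/CD40 3 also left out 20 of 26 were, with a median of -0.78. With any other array left out instead, 0 to 2 of 26 were. This filter was chosen after seeing the data. In 1 fit of all 18 arrays 6 of 27 were called lower. Of 19 ribosome biogenesis genes, 0 were called, all 19 had differences below 0 and the median was -0.29 (6 were lower at an unadjusted p under 0.05).

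Both groups received the same inhibitor, so the genes that ERK drives were read for a difference between them. Of 19 such genes, 0 were called and the median was -0.57 (8 were lower at an unadjusted p under 0.05). Dusp6, a phosphatase that ERK induces and that shuts ERK off, measured 12.28, 12.53, 11.97, 12.73 and 12.54 in MEKi tumors and 10.33, 11.09, 12.26 and 11.82 in MEKi/CD40 tumors. MEKi/CD40 3 lay among the MEKi tumors, and the difference of -1.03 ± 0.39 did not pass (adjusted p = 0.234). Egr1, Epha2 and Fosl1 differed by -2.04, -1.18 and -1.09. Of 17 cholesterol synthesis genes, 0 were called, 16 had differences below 0 and the median was -0.76 (1 was higher and 11 lower at an unadjusted p under 0.05). The median without the arrays of high fat signal was -1.26.

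In each stress list and among housekeeping genes 1 gene was called lower (1.92% of all genes were). A larger share passed an unadjusted p under 0.05 in that direction than the 12.5% of all genes. Of 17 hypoxia and glycolysis genes, 1 fell and 7 passed the unadjusted threshold, with a list median of -0.37. It was Ankrd37, a target of the hypoxia-inducible factor, at 9.81, 9.96, 10.33, 9.71 and 10.08 in MEKi tumors and 8.42, 8.90, 7.52 and 7.87 in MEKi/CD40 tumors, 3.48-fold lower (-1.80 ± 0.29, adjusted p = 0.0321). Its groups were separate by more than 0.8. Slc2a1, the glucose transporter GLUT1, and Vegfa differed by -0.71 and -0.37 and were not called. Of 16 unfolded protein and ATF4 genes, 9 were lower at the unadjusted threshold (median -0.31) and 1 fell, the asparagine synthetase gene Asns, 1.57-fold lower (-0.65 ± 0.12, adjusted p = 0.042). Of 12 heat shock chaperones, 4 were lower at the unadjusted threshold (median -0.38) and 1 fell, the mitochondrial co-chaperone Hspe1, 1.37-fold lower (-0.45 ± 0.08, adjusted p = 0.0426). Hsph1 of this list did not pass by the probe set that stands for it, but 1 of its 2 probe sets was called lower. Of 6 housekeeping genes, 4 were lower at the unadjusted threshold (median -0.14) and 1 fell, Hprt of purine salvage, 1.15-fold lower (-0.20 ± 0.03, adjusted p = 0.0301). The SD of Hprt within groups was 0.05 and 0.03.

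Lists of tissue next to the tumor were uneven between arrays. Of 11 adipocyte genes, 0 were called, all had differences above 0 and the median was 1.41 (1 was higher at an unadjusted p under 0.05), and 10 of them lay above 5 on MEKi/CD40 2. Of 16 skeletal muscle genes, 0 were called at either threshold and the median was 1.33, and 14 lay above 5 on MEKi/CD40 4 against 0 to 2 on each other array. Of 14 epidermis genes, 1 rose (0.962% of all genes did). It was Sbsn (suprabasin), at 7.91, 7.66, 7.93, 6.51 and 8.03 in MEKi tumors and 9.52, 9.93, 9.64 and 8.91 in MEKi/CD40 tumors, 3.71-fold higher (1.89 ± 0.36, adjusted p = 0.0466). The epidermis score overlapped between the groups, at 3.27 to 3.96 and 3.40 to 4.13. The red blood cell score did not, at 2.99 to 3.49 in MEKi tumors and 3.66 to 4.19 in MEKi/CD40 tumors, though 0 of its 5 genes were called (2 were higher and 1 lower at an unadjusted p under 0.05). Slc4a1 of this list did not pass by the probe set that stands for it, but 1 of its 3 probe sets was called higher. Of 10 mast cell and eosinophil genes, 6 lymphatic and nerve genes and 15 epithelial genes, 0 were called (3, 0 and 0 were higher at an unadjusted p under 0.05). Without MEKi/CD40 2 and 4, Clec3b differed by 5.70 (adjusted p = 0.0436) and Pi16 by 6.14 (adjusted p = 0.135). With the adipocyte score as a covariate, Clec3b differed by 5.58 (adjusted p = 0.0409) and Pi16 by 5.81 (adjusted p = 0.0926).

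**Figure D5:**
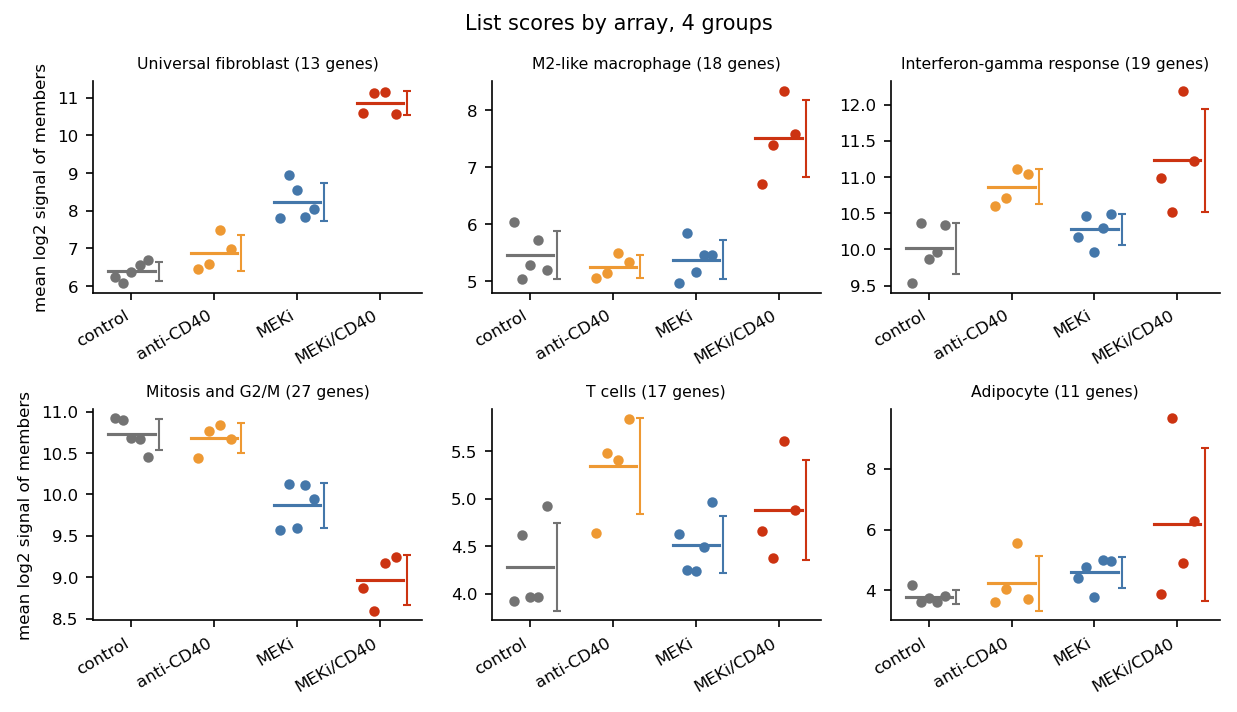
Score of 6 gene lists (vertical axis, mean log2 signal of the members) on each array of the 4 groups (horizontal axis), with horizontal bars at group means and vertical bars of 1 SD on either side. The universal fibroblast score is 10.57 to 11.17 in MEKi/CD40 tumors and the mitosis score 8.60 to 9.25, beyond every other group, while the T cell scores overlap and 2 MEKi/CD40 arrays stand out for adipocyte genes.

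The levels in tumors without the inhibitor put these changes beside the effect of the Ab alone. Clec3b was near the floor in control (2.47 ± 0.01, SD, n = 5) and anti-CD40 tumors (2.48 ± 0.00, n = 4), and Pi16 was low in both (2.84 ± 0.35 and 3.30 ± 0.44). Whether the change with anti-CD40 differed between inhibitor and vehicle was tested as an interaction in all 18 arrays, where 1191 of 45037 probe sets were called (2.64%), 479 higher and 712 lower. The interaction of Clec3b was 5.66 ± 0.48 (adjusted p = 0.000106) and that of Apol11b 4.52 ± 0.53 (adjusted p = 0.00155). The mitotic cyclin gene Ccnb2 was at 10.70 ± 0.27 in control and 10.72 ± 0.08 in anti-CD40 tumors, and its interaction was -1.38 ± 0.26 (adjusted p = 0.0149).

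For some genes the group means lay in opposite order with and without the inhibitor. Gas6 was at 7.07 ± 0.50 in control and 5.68 ± 1.40 in anti-CD40 tumors, with an interaction of 5.06 ± 0.90 (adjusted p = 0.0123). Mrc1 was at 10.13 ± 0.65 and 8.46 ± 0.59 there, with an interaction of 3.67 ± 0.72 (adjusted p = 0.017). In MEKi/CD40 tumors Mrc1 averaged 9.33 ± 1.30, within the range between those groups. The means of Il12b lay in the same order in both settings. Its highest group mean was in anti-CD40 tumors, at 5.42 ± 0.60 against 3.07 ± 0.38 in control tumors. With the inhibitor Il12b averaged 3.37 in MEKi/CD40 and 2.90 in MEKi tumors, near background. Its interaction was -1.89 ± 0.37 (adjusted p = 0.0173). The interaction did not pass for the called genes of the IFN-gamma response. Gbp6 was at 11.07 ± 0.62 in control and 12 ± 0.26 in anti-CD40 tumors (interaction 0.30, adjusted p = 0.790), and Irgm2 at 11.14 ± 0.43 and 12.02 ± 0.19 (interaction 0.14, adjusted p = 0.969). Serping1 had an interaction of 0.65 (adjusted p = 0.771).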

How the data were processed

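RNA of tumor pieces of 18 mice was measured on Affymetrix mouse 3′ arrays, and each array was taken as an independent animal. The deposited log2 values were made by the authors with RMA in Chipster, version not given in the sources used here. They ran from 2.16 to 16.34 with 34.4% at the lowest value, so the exact background step is uncertain and no depth or detection flag applies. Of 45101 probe sets, 64 control sets were left out and 45037 tested with no filter. A single gene symbol was given for 34945 of them, several for 932 and no symbol for 9160. Symbols came from the platform annotation, and 34741 were matched by gene identifier to the GRCm38.p6 tables. The probe set of highest mean over the 18 arrays, cross-hybridizing sets passed over, stood for each of 18193 genes. Two-sided tests used the linear models of limma 3.58.1 (R 4.3.3, statmod 1.5.0) on MEKi and MEKi/CD40 arrays (7 residual degrees of freedom, prior 0.357) and on all 18 arrays for the interaction. P-values were adjusted by Benjamini and Hochberg over all probe sets, and an adjusted p under 0.05 was called. The scripts were tested on simulated data.

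Genes were named as the 10 largest called differences per direction without overlap between the groups (Riken, Gm and predicted symbols passed over), the 3 members of lowest p in each list, and 25 genes fixed by name. The 39 gene lists, the fixed genes and the comparison were chosen with earlier results of these data known. Intervals are at 95% without adjustment. Alternatives changed the normalization, floor, filter, moderation, arrays, replicate block, title number series and adipocyte score. Replicate numbers were not treated as pairing the samples.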

Additional observations from a re-analysis of the deposited data

Results flagged for a closer look

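Within a group of the 4 or 5 compared arrays, a lone array stood apart from the others in 14 of 122 groups checked. MEKi 2 was such an array for Clec3b (4.47, others 2.48 to 2.95), Tnxb (4.07, others 2.23 to 2.41), Ndn (4.95, others 2.76 to 3.07) and Cd163 (3.13, others 2.16 to 2.34). It was also for Mbp at 2.91 and for the Itih5 probe set at 2.55, both near the floor. The criterion flags about 5% of independent groups of normal values. Groups near the floor and genes that share an array are neither, so 5% is no valid expectation here. MEKi/CD40 3 stood above its group for F13a1 (12.79, others 11.56 to 11.68) and Saa3 (14.80, others 12.14 to 12.48), and below it for the Actb 3′ to 5′ difference (0.37, others 0.42 to 0.43). MEKi/CD40 4 stood apart in the skeletal muscle score (7.56, others 2.60 to 2.77). MEKi 3 was low for Coq8a (8.27, others 8.80 to 9.01) and for Cd40 (4.93, others 6.30 to 6.54), MEKi 4 was low for Sbsn (6.51, others 7.66 to 8.03), and MEKi 5 was high for Ifng (5.42, others 4.27 to 4.48).

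The change with anti-CD40 differed between tumors with and without the inhibitor (interaction in limma, adjusted p under 0.05) for 26 of the 50 genes checked. Over all probe sets 2.64% were called. Many of the 50 genes were named for their difference between MEKi/CD40 and MEKi tumors. That difference is part of the interaction, so a high share among them was built in by the selection. For members of the fibroblast lists, the interaction on the log2 scale was 5.66 for Clec3b, 5.16 for Pi16, 4.85 for Itih5, 2.34 for Dpp4, 2.83 for Col14a1 and 0.90 for Col5a1. For genes in none of the lists it was 5.60 for Tnxb, 4.50 for Ndn, 4.29 for Smoc2, 4.52 for Apol11b and 5.29 for Mbp. Among myeloid genes it was 4.87 for Cd163, 5.06 for Gas6, 3.67 for Mrc1, 3.25 for Ccl6 and -1.89 for Il12b. Negative interactions were found for Nptx1 (-4.58), Kcne3 (-2.17), Cep55 (-2.65), Tmpo (-2.50), Coq8a (-2.15), Met (-1.63), Pdxk (-1.69), Anln (-0.89), Ccnb2 (-1.38) and Ankrd37 (-1.66). The comparison and the interaction share the MEKi and MEKi/CD40 arrays.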

How the results depend on the processing

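The called probe sets numbered 1127, and 1695 after quantile normalization, 2978 with a filter at 5 on at least 4 of 9 arrays, 2914 with a mean above 5 and 4286 with all 18 arrays in 1 fit. They numbered 502 with values below 5 raised to 5, 28 with the title number series as a block, 10 within title numbers below 7800, 379 without the arrays of high adipocyte score, 218 with that score as a covariate and 674 with 1 probe set per gene. Leaving out an array in turn gave 29 to 850. Chosen after seeing the data, the filter at a mean above 5 gave 1 call with the title block, 1837 with the adipocyte covariate and 1009 to 3721 with an array left out (2478 without MEKi 1, 2530 without MEKi 3, 1746 without MEKi/CD40 2 and 2413 without MEKi/CD40 4). The other alternatives stayed within 1.5 times the count. With the replicate number as a block, 0 were called in the comparison and 707 in the interaction (1191 without it). Same-numbered deviations correlated at 0.263, 0.0898, -0.222 and 0.269. No correlations between different numbers were computed, so these values cannot decide whether the numbers pair the arrays. The interaction count was 618 to 1431 with an array left out, and below the 1191 by over 1.5 times without control 2, 3 or 5, any anti-CD40 array, or MEKi 2, 4 or 5. List members called numbered 30, and 5 without the arrays of high adipocyte score, 0 within title numbers below 7800 and 1 to 19 with an array left out. For the 147 named genes, 3806 values under alternatives stayed on their side of the threshold without a change of direction, 386 gained a call, 513 lost it and 32 values of 8 genes changed direction, none of them called in either fit. Ighm (0.05) was at -0.267 with array weights, -0.351 without the arrays of high adipocyte score, -0.497 with that score as a covariate (with and without the filter at a mean above 5), and -0.223 to -0.24 without MEKi 3, MEKi/CD40 2 or MEKi/CD40 3. Gzmb (0.08) was at -0.198, -0.016 and -0.194 in the same 3 settings, and at -0.0825, -0.153 and -0.0493 without MEKi 1, MEKi/CD40 2 and MEKi/CD40 3. Foxp3 (-0.03) was at 0.02 with the title block and within title numbers below 7800, at 0.036 without the arrays of high adipocyte score or without MEKi/CD40 2, and at 0.0411 with the covariate. Without the arrays of high adipocyte score Cidec (2.63) was at -0.084, Myl1 (2.19) at -0.016 and S100b (0.11) at -0.004. S100b was at -0.0154 and Ms4a1 (0.0025) at -0.00027 with the covariate, and Sox10 (0.04) at -0.002 without MEKi/CD40 1. With each array left out in turn, Ighm ranged from -0.24 to 0.601, Gzmb from -0.153 to 0.284, Foxp3 from -0.07 to 0.036, S100b from -0.004 to 0.153 and Sox10 from -0.002 to 0.048. The Cd8a minus Foxp3 difference was 0.123 to 0.647 with an array left out. No cause of these shifts was tested. Signals below 5 limit the fold changes of dim genes, and 7 residual degrees of freedom limit the precision.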
